A study of Mus musculus with 6 samples.

Results

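The proteasome genes of the mouse mammary gland were described here at 10 and 5 weeks of age. They were taken as every gene whose only symbol in the platform annotation starts with Psma, Psmb, Psmc, Psmd, Psme, Psmf or Psmg, a rule that uses the names only. This gave 49 genes on 103 probe sets, of 18193 genes with a single symbol on the array, and the probe set with the highest mean stood for each gene. Of these, 47 genes encode subunits, activators, an inhibitor or assembly factors of the proteasome. The other two only carry the prefix: Psmc3ip encodes a partner of the recombinases of meiosis, and Psme3ip1 a protein that binds the activator Psme3. The probe set of the activator subunit Psme2 carries a second symbol as well, so Psme2 was not analysed here.

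The animals were female bitransgenic mice from a cross of the line that the labels call LH with the MMTV-neu line, in which a viral promoter active in mammary epithelium drives the neu (Erbb2) oncogene. Both ages carried both transgenes, so no group without them enters the comparison, and the labels do not say what drives the LH transgene. Total RNA of the mammary gland was pooled from 3 animals for each array, with 3 arrays and 9 animals an age. A single pool is therefore the replicate, and p-values measure the spread between such pools. Median signals lay between 156.4 and 172.5, and array pairs of 1 age correlated more closely (r = 0.973 to 0.978 over log2 signals) than pairs of different age (r = 0.932 to 0.955).

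The proteasome is the barrel-shaped protease that degrades proteins tagged with ubiquitin. Its core particle stacks rings of alpha subunits, which form the gate, around rings of beta subunits, of which Psmb5, Psmb6 and Psmb7 carry the standard active sites. Regulatory particles of ATPases (Psmc) and non-ATPases (Psmd) bind, unfold and feed in substrates, and other caps (Psme) open the gate without ubiquitin. In immune cells, and in other cells exposed to interferon gamma, the subunits Psmb8, Psmb9 and Psmb10 take the places of Psmb5, Psmb6 and Psmb7 in newly made core particles, and this immunoproteasome cuts proteins into peptides well suited to MHC class I molecules.

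Psmb8 and Psmb9 lie in the MHC region of mouse chromosome 17, beside Tap1 and Tap2, the genes of the peptide transporter, while Psmb5 and Psmb6 lie on other chromosomes. The 200 bases before the annotated start are shown for 2 of the 3 pairs of immunoproteasome and standard subunits, Psmb8 with Psmb5 and Psmb9 with Psmb6, because the comparison turns on such pairs. The third, Psmb10 with Psmb7, is not shown because the promoter table matched 41 of the 49 genes and Psmb7 is among the 8 others (Psma8, Psmb1, Psmb2, Psmb7, Psmc3, Psmd3, Psmd7 and Psmg2). The sequences are those of RefSeq on GRCm38.p6, 5′ to 3′ on the strand of the gene. Capitals mark matches to the interferon gamma activated element TTCNNNGAA, the interferon-stimulated response element (ISRE) or the antioxidant response element TGACNNNGC, each searched on both strands.
Psmb8 (chr17:34197995-34198194, plus strand): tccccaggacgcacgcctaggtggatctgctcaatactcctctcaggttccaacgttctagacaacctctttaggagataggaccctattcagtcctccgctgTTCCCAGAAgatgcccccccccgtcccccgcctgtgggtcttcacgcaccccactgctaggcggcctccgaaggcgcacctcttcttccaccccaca
Psmb5 (chr14:54617996-54618195, minus strand): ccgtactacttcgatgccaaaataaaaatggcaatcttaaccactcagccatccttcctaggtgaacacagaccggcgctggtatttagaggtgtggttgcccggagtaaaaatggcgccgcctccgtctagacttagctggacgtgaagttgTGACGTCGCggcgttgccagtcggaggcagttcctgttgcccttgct
Psmb9 (chr17:34187331-34187530, minus strand): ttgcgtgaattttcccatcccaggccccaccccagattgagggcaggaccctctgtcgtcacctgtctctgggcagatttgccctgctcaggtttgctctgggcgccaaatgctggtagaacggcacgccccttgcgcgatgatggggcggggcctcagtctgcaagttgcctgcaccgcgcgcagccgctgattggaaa
Psmb6 (chr11:70525157-70525356, plus strand): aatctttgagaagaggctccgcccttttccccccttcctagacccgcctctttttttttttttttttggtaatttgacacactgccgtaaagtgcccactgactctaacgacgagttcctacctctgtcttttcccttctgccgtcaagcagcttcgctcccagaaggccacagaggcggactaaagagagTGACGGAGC
The Psmb8 window held TTCCCAGAA at 97 to 89 bases before the start, the only such element among the 41 member genes found in the promoter table, while 5.49% of all 32851 windows of this length held one. The antioxidant response element was in 3 of the 41 genes (Psmb5, Psmb6 and Psmd9), a share of 7.32% beside 8.6% of all windows, and the ISRE in 3 (Psmb3, Psmd4 and Psmd9), 7.32% beside 2.27%. None of these letters matched in the Psmb9 window. Member shares count genes with a match in any of their 44 windows, while the shares of all count single windows. A match describes the letters of these windows and not a binding site.

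Most proteasome genes were slightly brighter at 10 weeks, and few of the differences passed the test. Of the 49 genes, 47 passed the filter on dim probe sets. The genes left out were Psma8, the alpha subunit of the testis, with mean signals of 28.2 at 10 weeks and 27.0 at 5 weeks, and Psmb11, the catalytic subunit of the thymus, with 74.2 and 33.2. The difference was positive for 39 of the 47 (83%), where 49.6% of all 13002 genes tested had a positive difference. Their median log2 difference was 0.16, beside a median of -0.0037 for all genes. Here and below a log2 difference is 10 minus 5 weeks on the scale of log2(signal + 32), and a call is an adjusted p under 0.05 (limma, Benjamini-Hochberg over all probe sets tested).

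The test called 8 proteasome genes higher and 1 gene lower where 34.1% of all genes were called in either direction. The 8 are 17% of the members tested, where 15.3% of all genes were called higher, so the share of increases was near that of all genes. The 1 decrease, that of Psmc3ip, is 2.13%, where 18.7% of all genes were called lower, and among the 45 that encode proteasome proteins none was called lower. In that set 7 differences were negative, and the lowest was -0.16. At an unadjusted p under 0.05, 16 of these 45 (35.6%) passed, beside 45.8% of all genes. The ages did not overlap for 21 members (44.7%, beside 50.3% of all genes): for 19 with the 10-week pools above (40.4%, beside 24% of all genes) and for 2 with them below (4.26%, beside 26.3% of all genes). The differences were also small: 6 of the 47 (12.8%) reached 0.5 in size and none reached 1, where 31.3% and 10.9% of all genes did.

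**Figure D1:**
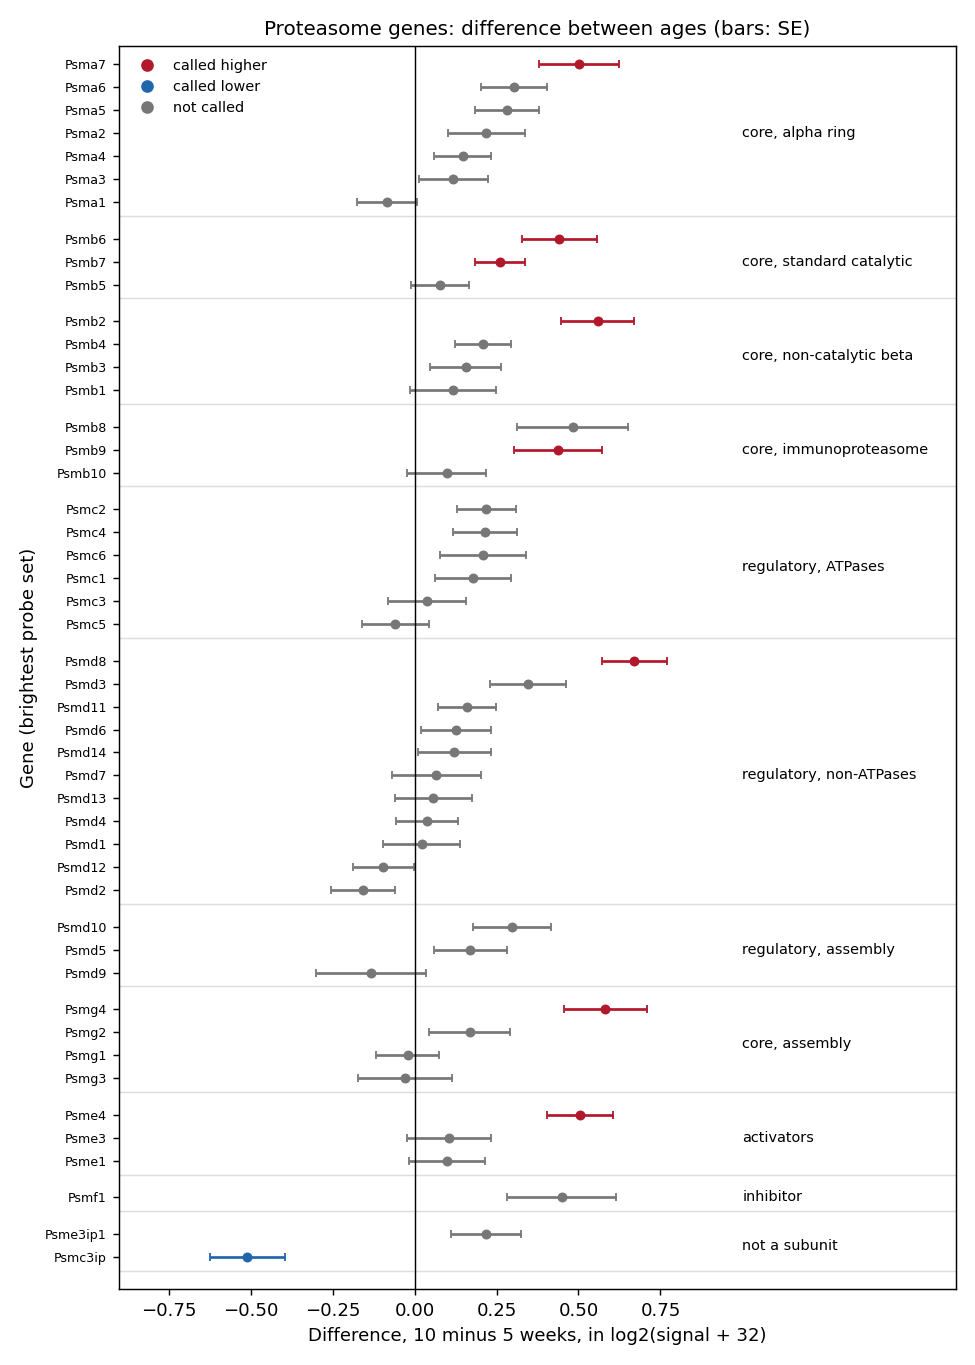
Difference between 10 and 5 weeks for the 47 proteasome genes tested, in log2(signal + 32), grouped by their place in the complex. Points are limma estimates with their SE as bars, red for the 8 genes called higher, blue for Psmc3ip, the 1 gene called lower, and grey for the rest; most points lie right of 0 and none lies beyond 0.67 in size.

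In the alpha ring, 1 of 7 genes tested was called higher. Psma7 had signals of 3867.2, 4269.4 and 4415.7 at 10 weeks and 2636.3, 2772.0 and 3484.8 at 5 weeks. The 5-week pool closest to the 10-week range was pool 3, and the ages did not overlap. The log2 difference was 0.50 ± 0.12 (SE, n = 3 pools an age), a 1.42-fold difference (adjusted p = 0.0150), and the call ended when 10-week pool 3 (adjusted p = 0.0533) or 5-week pool 1 (0.0521) was left out. A second bright probe set of Psma7 gave 0.29, overlapped between ages and was not called (adjusted p = 0.0986), and the average of both was called (0.40, adjusted p = 0.0303). Psma6 (0.30, adjusted p = 0.0519) and Psma5 (0.28, adjusted p = 0.0602) lay just past the threshold, and on these probe sets neither overlapped between ages. A Psma6 probe set of nearly the same brightness gave 0.07 with overlapping ages (adjusted p = 0.621), and the average over the gene's probe sets was 0.14 (adjusted p = 0.346). Psma2 (0.22), Psma4 (0.15) and Psma3 (0.12) were not called, and Psma1 had a difference of -0.08 with a 95% interval from -0.29 to 0.12.

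Among the standard active-site subunits, Psmb6 and Psmb7 rose and Psmb5 was not called. Psmb6, the caspase-like site, had signals of 3247.6, 3182.6 and 2831.9 at 10 weeks and 2207.0, 2034.7 and 2572.2 at 5 weeks. Every 10-week pool exceeded every 5-week pool, and the log2 difference was 0.44 ± 0.11 (SE, n = 3; adjusted p = 0.0196). Leaving out pool 1 or 2 of either age ended that call, at adjusted p-values of 0.0642 and 0.0638 for the 10-week pools and 0.0574 and 0.0627 for the 5-week pools. Psmb7, the trypsin-like site, had signals of 10375, 10032 and 10315 at 10 weeks and 8864.3, 8411.9 and 8353.4 at 5 weeks. Its pools were tight and did not overlap, and the difference was small, 0.26 ± 0.08 (SE, n = 3; adjusted p = 0.0325).

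The Psmb7 call was the least stable of the 8. It was lost whichever pool was left out (adjusted p = 0.0560 to 0.0915), with no filter (0.0720) and with no variance trend (0.112). After quantile normalization the difference was 0.13 (adjusted p = 0.147). Psmb5, the chymotrypsin-like site, had signals of 4395.8, 4563.6 and 4598.8 at 10 weeks and 4016.4, 4588.8 and 4252.2 at 5 weeks. The ages overlapped through 5-week pool 2, and the difference was 0.08 with a 95% interval from -0.12 to 0.28.

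Of the 4 beta subunits without an active site, Psmb2 rose. Its signals were 3834.3, 3488.8 and 3585.6 at 10 weeks and 2824.3, 2367.8 and 2216.1 at 5 weeks, with a wide gap between the ages. The log2 difference was 0.56 ± 0.11 (SE, n = 3; adjusted p = 0.00609). Psmb4 (0.21), Psmb3 (0.16) and Psmb1 (0.12) were not called on their brightest probe sets. Psmb1 was called when its tested probe sets were averaged (0.48, adjusted p = 0.0130). That average took in dimmer probe sets with 0.92 (adjusted p = 0.0212) and 0.40 (0.0860), where the brightest gave 0.12. Signals of the dimmer probe sets were 80.2 to 334.3 and 220.7 to 376.0.

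Of the 3 immunoproteasome subunits, 1 was called higher, and all 3 had positive differences. They were not tested against one another. Psmb8, the counterpart of Psmb5, had signals of 3854.8, 3412.4 and 2493.0 at 10 weeks and 2545.6, 2396.7 and 1946.2 at 5 weeks. The ages overlapped because 10-week pool 3 lay below 5-week pool 1, and the log2 difference of 0.48 ± 0.17 (SE, n = 3) was not called (adjusted p = 0.0613, 95% interval 0.10 to 0.87). It was called without 10-week pool 3 (0.66, adjusted p = 0.0143) and with arrays centred on their medians (0.51, adjusted p = 0.0455).

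Psmb9, the counterpart of Psmb6, rose from signals of 1343.5, 1294.0 and 1215.3 at 5 weeks to 1994.0, 1860.4 and 1438.3 at 10 weeks. The ages did not overlap, although 10-week pool 3 again came closest to the 5-week range. The log2 difference was 0.44 ± 0.13 (SE, n = 3; adjusted p = 0.0390), and the call was lost in 8 of 16 alternatives, among them leaving out any single pool except 10-week pool 3 (adjusted p = 0.0676 to 0.125). No filter (0.0592), no variance trend (0.0653) and array weights (0.0538) ended it too. Psmb10, the counterpart of Psmb7, had signals of 1775.2, 1907.7 and 1477.1 at 10 weeks and 1564.8, 1518.9 and 1708.9 at 5 weeks. Its ages overlapped, with the lowest value of all in 10-week pool 3, and its difference was 0.10 with a 95% interval from -0.17 to 0.37. All 3 immunoproteasome genes were thus lowest, among the 10-week pools, in pool 3.

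**Figure D2:**
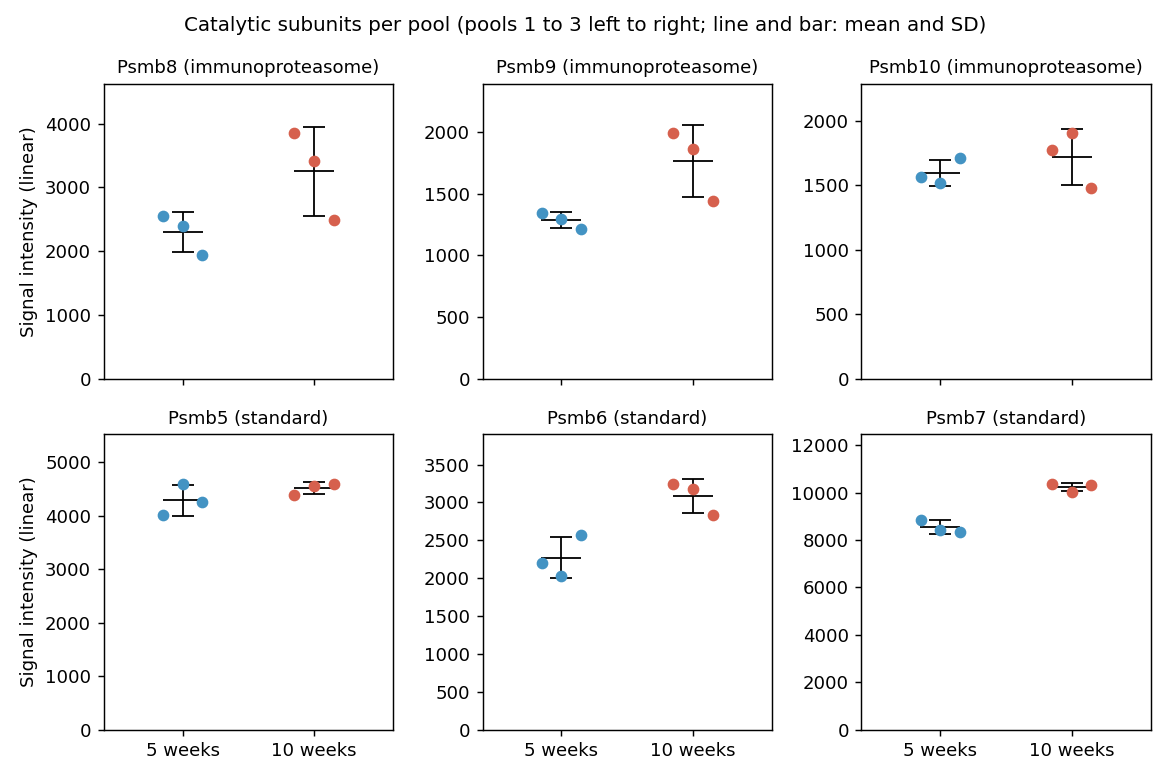
Linear signal intensity of the 6 active-site subunits in each pool, with immunoproteasome subunits above the standard subunit each replaces; points are pools 1 to 3 from left to right, lines and bars the mean and SD of an age. Psmb9, Psmb6 and Psmb7 show no overlap between ages, while Psmb8, Psmb10 and Psmb5 do.

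The change of each immunoproteasome subunit was set against that of its standard counterpart within each array, which removes the brightness of the single probe sets. For Psmb8 minus Psmb5 the log2 signal differences were -0.19, -0.42 and -0.87 at 10 weeks and -0.65, -0.93 and -1.11 at 5 weeks, so the ages overlapped through 10-week pool 3. The shift between ages was 0.41 ± 0.24 (SE, n = 3; exact two-sided permutation p = 0.2, 0.6 adjusted over the 3 pairs). For Psmb9 minus Psmb6 the shift was -0.01 ± 0.15 (exact p = 1), with -0.69, -0.76 and -0.96 at 10 weeks and -0.70, -0.64 and -1.06 at 5 weeks. For Psmb10 minus Psmb7 it was -0.16 ± 0.13 (exact p = 0.4, 0.6 adjusted), with -2.53, -2.38 and -2.78 at 10 weeks and -2.48, -2.44 and -2.27 at 5 weeks. No pair separated the ages, and 3 pools against 3 cannot give an exact p below 0.1. The shift of Psmb8 against Psmb5 was 0.25 without 10-week pool 1, where its signal was highest, and 0.60 without 10-week pool 3.

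In the regulatory particle, the ATPases that unfold substrates showed no call. Of 6 genes, 5 had positive differences. Psmc2 (0.22, adjusted p = 0.102) and Psmc4 (0.21, adjusted p = 0.136) did not overlap between ages, Psmc6 (0.21) and Psmc1 (0.18) did, and Psmc3 (0.04) and Psmc5 (-0.06) lay near 0. The second probe set of Psmc4 gave -0.05. Of the 11 non-ATPases, 1 was called. Psmd8, a subunit of the lid that covers the ATPase ring, had signals of 7240.6, 6329.9 and 6510.9 at 10 weeks and 4578.8, 3846.2 and 4166.9 at 5 weeks. Even the dimmest 10-week pool lay well above the brightest 5-week pool. With a log2 difference of 0.67 ± 0.10 (SE, n = 3), or 1.59-fold, it had the largest change of the members tested (adjusted p = 0.00144).

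The remaining non-ATPases were not called. Psmd3, a scaffold of the lid, came closest (0.35, adjusted p = 0.0529). Psmd11 (0.16), Psmd6 (0.13) and Psmd14 (0.12), the last of which removes ubiquitin chains from substrates, were positive, and Psmd7 (0.07), its partner, Psmd13 (0.06), Psmd4 (0.04), a ubiquitin receptor, and Psmd1 (0.02) were near 0. Psmd12 (-0.10, with every 10-week pool below the 5-week pools) and Psmd2 (-0.16), a large scaffold of the base, were negative. The 95% interval of Psmd2 ran from -0.38 to 0.06, and that of Psmd8 from 0.44 to 0.90. For Psmd4 and Psmd13 a dimmer probe set was called higher (0.69, adjusted p = 0.0266, and 0.59, adjusted p = 0.0486) while the brightest was not. Signals of these dimmer probe sets were 247.3 to 597.3 for Psmd4 and 87.9 to 208.4 for Psmd13. The next brightest probe sets of Psmd11 (-0.21), Psmd4 (-0.18) and Psmd6 (-0.08) had the opposite sign to the brightest and were not called.

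Among the caps that open the core without ATP, Psme4, a single large protein, rose. Its signals were 4724.9, 4137.2 and 4512.7 at 10 weeks and 3340.9, 2825.2 and 3244.2 at 5 weeks, with no overlap. The log2 difference was 0.50 ± 0.10 (SE, n = 3; adjusted p = 0.00650), and 2 further probe sets of the gene were called as well (0.39 and 0.43). Psme1, a subunit of the cap that interferon gamma induces, had signals of 4237.8, 5142.0 and 5409.4 at 10 weeks and 4931.7, 4163.5 and 4659.7 at 5 weeks. The ages overlapped, with the highest 5-week pool above the lowest 10-week pool, and its difference of 0.10 had a 95% interval from -0.16 to 0.36. Psme3, the nuclear cap, had signals of 1570.8, 1302.1 and 1756.1 at 10 weeks and 1376.0, 1529.0 and 1368.0 at 5 weeks, also overlapping, with a difference of 0.10 and an interval from -0.19 to 0.40.

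Psmf1, which encodes an inhibitor of the core particle, had signals of 974.1, 952.5 and 769.3 at 10 weeks and 623.3, 536.9 and 803.8 at 5 weeks. It was not called (0.45, adjusted p = 0.0733) and was called without 5-week pool 3, its brightest 5-week pool (0.60, adjusted p = 0.0263). Its probe sets disagreed, with -0.31 and -0.13 on the next brightest, and their average gave 0.04.

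Assembly factors gave 1 call. Psmg4, a chaperone that works with Psmg3 on the alpha ring, had signals of 1243.1, 1012.2 and 1205.5 at 10 weeks and 709.4, 839.6 and 727.9 at 5 weeks. The ages were well apart, with a log2 difference of 0.58 ± 0.13 (SE, n = 3; adjusted p = 0.00909). Its partner Psmg3 had a difference of -0.03 (95% interval -0.35 to 0.30). In the other chaperone pair, Psmg1 had -0.02 and Psmg2 0.17 on its brightest probe set, with -0.37 on the next (adjusted p = 0.120). Of the chaperones of the regulatory particle, Psmd10 (0.30, adjusted p = 0.0952) and Psmd5 (0.17) did not overlap between ages and were not called, and Psmd9 had -0.13.

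Of the genes that carry only the prefix, Psmc3ip fell. Its signals were 466.0, 434.3 and 465.8 at 10 weeks and 645.8, 679.3 and 660.5 at 5 weeks, a log2 difference of -0.51 ± 0.12 (SE, n = 3; adjusted p = 0.0108). Its second probe set gave -0.42 and was not called (adjusted p = 0.0617). Psme3ip1 (0.22, adjusted p = 0.164) was not called. Psmd8, Psmb2, Psmg4, Psme4 and Psmc3ip kept their calls under all 16 alternatives.

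The pools of an age differed among themselves by role. Relative to each gene's mean over the 6 pools, the median deviation of the non-ATPases was 0.19 in 10-week pool 1, and 0.01 in both other 10-week pools. That of the 7 standard beta subunits was more even, at 0.15, 0.10 and 0.10. The immunoproteasome genes spread most, with 0.41, 0.31 and -0.12 at 10 weeks and -0.09, -0.17 and -0.30 at 5 weeks. Without 10-week pool 1 the count of members called higher was 5 instead of 8, without 5-week pool 1 it was 4 and without 5-week pool 2 it was 5. The count of members with a positive difference ranged from 36 to 42 when single pools were left out.

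**Figure D3:**
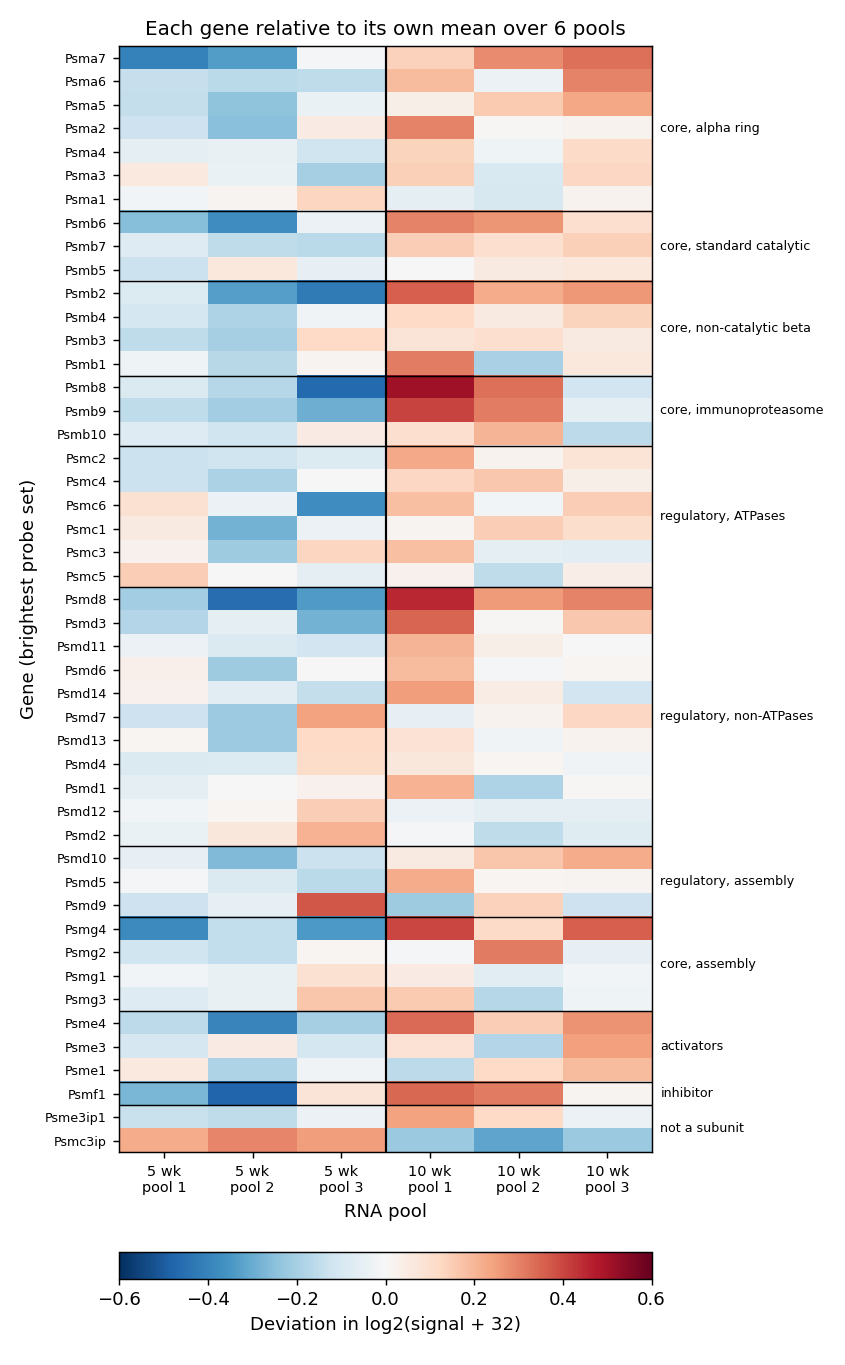
Deviation of each of the 47 genes from its own mean over the 6 pools, in log2(signal + 32), with the 5-week pools on the left and the 10-week pools on the right (red above, blue below the mean). Psmd8, Psmb2, Psme4 and Psmg4 change colour cleanly between the ages, and the immunoproteasome rows lie below their own means in 10-week pool 3.

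The genes around the proteasome were read from lists of its partners and of the peptide pathway it feeds. Of all genes tested, 15.3% were called higher and 18.7% lower, and the counts of each list below stand beside these shares. Of 17 proteasome-associated genes measured, 2 rose and 1 fell, with a median of 0.03. Zfand5, which binds the proteasome and stimulates it, had signals of 6533.1, 6045.6 and 6117.5 at 10 weeks and 4004.3, 3449.0 and 3680.4 at 5 weeks, with no overlap, and rose by 0.74 ± 0.09 (SE, n = 3; adjusted p = 0.000575). Zfand2a, a stress-induced relative, rose by 0.48 (adjusted p = 0.0180). Ube3c, a ubiquitin ligase bound to the proteasome, fell by 0.36 (adjusted p = 0.0284). Of 10 genes measured for ubiquitin activation and the segregase Vcp, 1 rose, which was Uba6, a ubiquitin-activating enzyme (0.65, adjusted p = 0.0130), and none fell. The median of that list was 0.12.

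Of 12 genes of MHC class I peptide loading, 2 rose and none fell, beside 15.3% and 18.7% of all genes. The median of the list was 0.15. Tap2, a chain of the peptide transporter and the neighbour of Psmb8, had signals of 2167.8, 2218.8 and 2228.4 at 10 weeks and 1394.7, 1340.1 and 1326.2 at 5 weeks. Its pools were tight, with a log2 difference of 0.69 ± 0.09 (SE, n = 3; adjusted p = 0.000799). Tapbp, which bridges the transporter to class I molecules, rose by 0.41 (adjusted p = 0.0119). Tap1, named after its values were seen because it lies between Psmb9 and Psmb8, had 1143.1, 1238.3 and 735.6 at 10 weeks and 694.3, 661.5 and 689.7 at 5 weeks. Like both neighbours it was lowest in pool 3 among the 10-week pools, and it was not called (0.55, adjusted p = 0.0512).

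Of 20 genes of interferon signalling, 6 fell and 5 rose, beside 18.7% and 15.3% of all genes. The median of the list was -0.12. Those that fell with the smallest adjusted p were Oasl2 (-1.36), Usp18 (-1.16) and Irf7 (-1.30), all known targets of type I interferon. The largest increase was that of Ifi47, a GTPase gene induced by interferon gamma (0.74, adjusted p = 0.00251). The other GTPase genes of the list, Gbp2 (0.15), Gbp3 (-0.54), Igtp (-0.16) and Iigp1 (-0.08), were not called. Neither were Cxcl9 (0.43) and Cxcl10 (-0.20). Irf1 (0.49), Ifnar2 (0.40), Irf9 (0.35) and Ifngr2 (0.33) also rose. Ifit3 (-1.54), Ifit1 (-1.34) and Ifnar1 (-0.75) also fell. In the 10-week pools Oasl2 had signals of 354.9, 359.1 and 287.0, and in the 5-week pools 1038.2, 872.3 and 804.5. The part of interferon in the proteasome values was not tested.

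Markers of several cell types moved between the ages as well, and none of those listed here was at 0 in any pool. Of 11 luminal epithelial genes 7 rose, and their summed signal was 88072 to 101610 at 10 weeks and 57440 to 69142 at 5 weeks. The brightest, Csn2, had a difference of 0.11, the smallest of the list. All 11 differences were positive, and the median of the list was 0.61. In RNA of a whole gland, fewer cells of a type and less RNA per cell cannot be told apart. Of 10 skeletal muscle genes 3 fell, with sums of 7130.3 to 53973 and 67859 to 115000, the lowest in 10-week pool 1. The brightest, Acta1, had -0.98, and the median of the list was -1.995. Of 7 adipocyte genes 3 fell, with sums of 47101 to 55793 and 55592 to 67195. Fabp4, the brightest, had -0.04, and the median of the list was -0.49.

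Immune cells are known to express the immunoproteasome, and their markers are given for that reason. Of 10 B cell and lymph node genes 3 rose, all of them MHC class II genes, with sums of 19027 to 23043 at 10 weeks and 13191 to 20479 at 5 weeks, and Cd74, the brightest, had 0.23. These sums are mostly Cd74 and class II signal. The other 6 genes had negative differences that were not called, among them Cd79b (-1.69) and Cd79a (-0.80), chains of the B cell receptor, and the median of the list was -0.15. Their signal lay mainly in 5-week pool 2, where Cd79a was 756.4, beside 68.5 and 87.2 in the other 5-week pools, and Ms4a1 was 704.9, beside 68.3 and 76.1. Of 7 T cell genes 5 were tested and none was called (limma), with a median of 0.38. The brightest, Cd8a, had 0.37 (adjusted p = 0.106). It was lowest in 5-week pool 2 (239.5), where Cd3e (549.6) and Cd3g (623.9) were highest. The sums of the T cell genes were 1147.6 to 1458.1 at 10 weeks and 643.7 to 2871.7 at 5 weeks, highest in 5-week pool 2. Cd3d, a chain of the T cell receptor complex, was dim (10.8 to 41.3) in every pool but that one, where it was 521.2. Without that pool the differences were 0.52 for Psmb8 (adjusted p = 0.0907) and 0.44 for Psmb9 (0.0780). Of 11 macrophage genes 3 rose and 3 fell, with 8 differences negative and a median of -0.21. Their sums were 30030 to 32667 at 10 weeks and 32758 to 35406 at 5 weeks. Those that rose were Lyz2, the brightest (0.32), Adgre1 (0.42) and Mpeg1 (0.82), and those that fell were Cd163 (-1.70), Mrc1 (-1.10) and Csf1r (-0.28). The part of these cell types in the proteasome values was not tested.

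**Figure D4:**
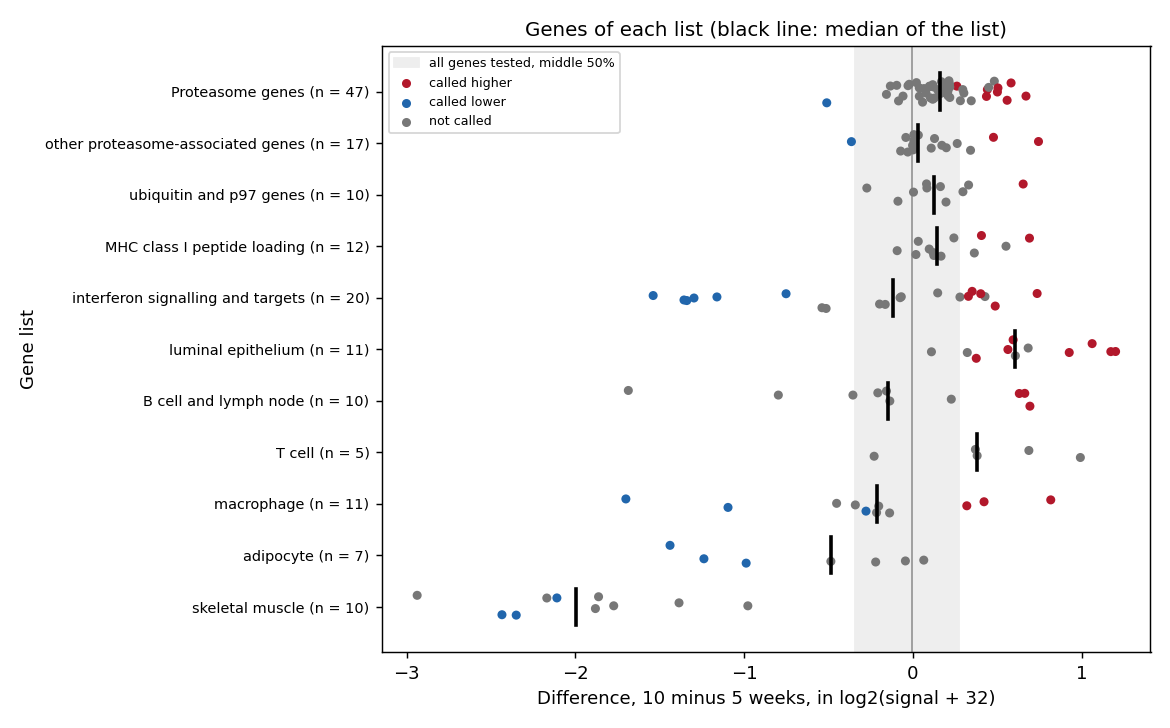
Differences between 10 and 5 weeks in log2(signal + 32) for the proteasome genes and 10 other gene lists, each point a gene, red where called higher, blue where called lower, with a black line at the list's median. The grey band is the middle 50% of all genes tested (-0.35 to 0.28), and the proteasome genes form a narrow cloud with a median of 0.16 beside the wider spread of interferon, luminal and muscle genes.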

How the data were processed

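The authors deposited 1 linear signal intensity for every probe set on each array. Their trimmed mean, without the lowest and highest 2%, was 500 on every array. The method of summarising probes was not given in the sources used here. In all the file holds 45101 probe sets, of which 64 controls were left out. Probe sets were named from the platform annotation, and listed genes through RefSeq's GRCm38.p6 table, which matched 34741 of 34945 with a single symbol. Signals were floored at 1 and transformed to log2(signal + 32), a scale that understates changes of dim genes. Array medians differed by at most 0.118, so no normalization was added. The dimmest 40% of probe sets were dropped, which left 27022 and 13002 genes. limma 3.58.1 (R 4.3.3) was fitted on age with a variance trend. Named genes are all members, and of each pathway list the 3 smallest adjusted p-values in the direction of most calls with the largest call the other way. Of marker lists it is the brightest gene. Cd79a, Cd79b, Ms4a1, Cd3d, Cd3e, Cd3g, the other called macrophage genes and further interferon genes were named outside this rule, because of their values. Subunit pairs were compared by exact permutation over pools. The steps were tested on simulated data. The members and lists were chosen with earlier results of these data known. Promoter windows came from RefSeq, and plots were drawn with matplotlib 3.10.9. The number of arrays limits the precision.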

Additional observations from a re-analysis of the deposited data

How the results depend on the processing

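Of the 16 alternatives, 6 left out a pool each, and the others set another offset, brightness filter, scaling or variance model, weighted the arrays, or averaged probe sets. Members called higher numbered 4 to 7 without single pools and 6 to 10 otherwise, beside 8; 1 was called lower in each. Among all genes 1399 to 1762 were called higher and 1887 to 2033 lower without single pools, beside 1992 and 2436. Beside the calls gained by Psmb8, Psmb1 and Psmf1 that are given with those genes, calls were gained by Psma6 and Psmd3 with the 60% filter (adjusted p = 0.0439 and 0.0456) or without 10-week pool 2 (0.0232 and 0.0421), Psma6 with robust variance (0.0480) and Psma5 with array weights (0.0419). The median of the members was 0.12 to 0.19. The shifts of the pairs without single pools were 0.25 to 0.60 for Psmb8, -0.14 to 0.08 for Psmb9 and -0.25 to -0.05 for Psmb10. After quantile normalization the last was -0.04. No paired analysis was possible because the labels give no replicate numbers shared between the ages.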
